A study of Mus musculus with 2 samples.

Results

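Capillary endothelial cells of the newborn mouse heart line the smallest blood vessels, where plasma and heart muscle exchange their fuel, and here they were followed as 300 cell barcodes from 2 single-cell RNA libraries, 145 in technical replicate 1 and 155 in technical replicate 2. They made up 2.55% (exact 95% binomial interval 2.28 to 2.85) of the 11749 barcodes with at least 500 detected genes and came out of 11935 barcodes deposited. A barcode was a member when haemoglobin genes took under 0.5% of its counts, Myl2 and Myl7 under 0.3%, and Pecam1 or Cdh5, both endothelial junction genes, had at least 1 count. Fabp4, Gpihbp1, Cldn5 and Rgcc together also had to reach 8 counts. The endocardial genes Npr3, Tmem108, Foxc1 and Nrg1 could reach at most 2 counts together, and so could the arterial genes Gja4, Gja5, Sox17 and Bmx. The sum of Top2a, Mki67, Ccnb1, Ccna2, Cenpf, Hmmr, Anln and Racgap1, which mark dividing cells, was at most 4. These 28 genes chose the members, so their levels are a description and support nothing.

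The hearts were whole hearts of mice on a C57BL6 and ICR background at postnatal day 0, with no mutation, treatment or transgene among the groups. The tissue was broken up in trypsin (37 °C, 30 min in total, collected as 6 fractions of 5 min), and droplets were made with 10x Chromium version 2 chemistry of the 3′ ends, with a target of 6000 to 10000 cells per channel. The series set out to chart the cell types of the newborn heart as a guide for picking transcription factors that might convert one lineage into another. The labels call both libraries technical replicates of 1 biological sample, so no difference between cell classes was replicated across animals and none is given with a p-value. The second matrix carries another internal library identifier than its record, and each matrix was used under the record it was deposited with.

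The capillary barcodes were set beside 3 other classes, each drawn from the same 2 libraries. The arterial class, 55 barcodes (27 and 28), met the same limits but had at least 5 counts of the 4 arterial genes and no condition on Fabp4, Gpihbp1, Cldn5 and Rgcc. The endocardial class, the lining of the heart chambers, had 143 barcodes (69 and 74) with at least 5 counts of the 4 endocardial genes, also with no condition on Fabp4, Gpihbp1, Cldn5 and Rgcc. The non-endothelial class held 8782 barcodes (4513 and 4269) with at least 500 genes and no count of Pecam1 or Cdh5. The median capillary barcode had 5330 counts and 2177 genes, the median arterial barcode 12957 counts and 3861 genes, the median endocardial barcode 6577 counts, and the median non-endothelial barcode 4701.5 counts. Since the limits are absolute counts, shallow barcodes pass the upper limits more easily, and 92 of 300 capillary barcodes had at least 8000 counts, against 43 of 55 arterial barcodes. Mitochondrial genes took a median of 4.23% of the counts of a capillary barcode, against 31.9% of a non-endothelial one. The 2 libraries held 34668956 and 33871582 counts, and 53 barcode sequences occurred in both, none of them a capillary barcode in both.

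Capillary endothelium of the heart is specialised for moving fatty acids. Lipoprotein lipase, made mostly by muscle and fat cells, is carried to the capillary surface by GPIHBP1, releases fatty acids from blood lipoproteins, and the acids are taken up with the help of the membrane protein CD36 and bound inside the cell by FABP4 and FABP5. In mouse heart endothelium the transcription factors TCF15 and MEOX2 act together on genes of this uptake. Growing heart vessels also use the apelin system, in which the peptide comes mainly from vessel tips and its receptor is known from veins and capillaries.

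The promoters of 4 genes with some of the largest differences from endocardial cells are shown because each gene was close to absent in the endocardium and abundant in capillary barcodes. They run from 250 bases before to 50 bases after the annotated start, in GRCm38.p6, from RefSeq, and read in the direction of transcription. Capitals mark an ETS core, the letters CCGGAA or CAGGAA on either strand, since factors of the ETS family are known regulators of endothelial genes. Btnl9 (chr11:49187040-49187339, minus strand) had 1 match, C1qtnf9 (chr14:60767884-60768183, plus strand) had 3, Car4 (chr11:84957504-84957803, plus strand) had 2 that overlap each other, and Ly6c1 (chr15:75048788-75049087, minus strand) had none.
Btnl9: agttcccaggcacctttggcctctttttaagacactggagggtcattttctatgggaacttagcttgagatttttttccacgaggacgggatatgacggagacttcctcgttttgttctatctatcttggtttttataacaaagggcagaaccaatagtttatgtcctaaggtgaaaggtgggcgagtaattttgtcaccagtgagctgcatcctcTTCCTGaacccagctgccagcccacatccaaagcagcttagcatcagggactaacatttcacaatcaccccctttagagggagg
C1qtnf9: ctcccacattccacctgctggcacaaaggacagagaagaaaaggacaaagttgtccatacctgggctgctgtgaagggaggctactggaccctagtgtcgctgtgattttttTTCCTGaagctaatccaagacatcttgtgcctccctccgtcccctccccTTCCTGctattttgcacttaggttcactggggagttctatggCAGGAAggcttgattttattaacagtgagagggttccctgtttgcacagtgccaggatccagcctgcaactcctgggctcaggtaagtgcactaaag
Car4: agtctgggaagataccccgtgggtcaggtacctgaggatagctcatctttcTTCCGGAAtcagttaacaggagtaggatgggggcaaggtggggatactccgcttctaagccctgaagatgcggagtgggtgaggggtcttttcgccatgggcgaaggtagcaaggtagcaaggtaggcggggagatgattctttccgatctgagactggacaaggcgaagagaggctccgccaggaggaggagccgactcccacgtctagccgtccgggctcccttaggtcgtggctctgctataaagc
Ly6c1: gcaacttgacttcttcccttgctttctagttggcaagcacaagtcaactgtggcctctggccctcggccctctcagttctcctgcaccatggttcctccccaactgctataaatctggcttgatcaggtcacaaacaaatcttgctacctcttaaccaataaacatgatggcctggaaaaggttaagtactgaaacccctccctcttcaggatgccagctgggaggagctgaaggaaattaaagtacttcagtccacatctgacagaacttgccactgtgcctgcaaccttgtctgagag
An ETS core was present in 41.4% of all 27025 promoters of this length and in 48.9% of the 4834 promoters of genes measured against endocardial cells. It was present in 48.8% of 363 promoters of genes at least 2-fold higher in capillary than in endocardial barcodes, and in 33.7% of 406 promoters of genes at least 2-fold lower. The share among the higher genes was close to that of all measured genes. The E-box, CANNTG, the letters bound by basic helix-loop-helix factors such as TCF15, was in 67.2% of the promoters of the higher genes, 60.8% of those of the lower genes, 59.5% of those of all measured genes and 72.1% of all promoters. A match is a string of letters and was not tested as a binding site.

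The label was checked against 5 capillary markers, of which 3 had chosen the members. Gpihbp1 (chromosome 15, 75596628 to 75599481 in GRCm38), the carrier of lipoprotein lipase, had 1659 and 1747 CPM (counts of a gene per 1e+06 summed counts of a class) in the capillary class of technical replicates 1 and 2, 880.0 and 1091 CPM in the arterial class, and 51.2 and 26.4 CPM in the endocardial class. Fabp4 (chromosome 3, 10204088 to 10208576), a fatty acid carrier inside the cell, had 15720.2 and 14584 CPM in capillary barcodes, 10836 and 10555 CPM in arterial barcodes and 482 and 219 CPM in endocardial barcodes. Rgcc, a cell cycle regulator, had 778 and 871 CPM, against 559 CPM in arterial and 11.4 CPM in endocardial barcodes. All 3 took part in the choice, and all 3 were also abundant in the arterial class, where they were not required.

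The other 2 markers took no part in the rule. Btnl9 (chromosome 11, 49165585 to 49187159, minus strand), a butyrophilin-like membrane protein, had 323 and 404 CPM in capillary barcodes, 470.3 and 399 CPM in arterial barcodes, 2 counts in all endocardial barcodes together and 4.53 CPM in non-endothelial ones. Tcf15 (chromosome 2, 152143561 to 152149097) had 631 and 833 CPM in capillary barcodes, 694 and 704 CPM in arterial barcodes, 119.5 and 108 CPM in endocardial barcodes and 14.4 CPM in the rest. Both were therefore high in both vascular classes and low in endocardium and muscle. Capillary over arterial, the ratio was 0.827 for Btnl9 (95% counting interval 0.727 to 0.942) and 1.05 for Tcf15 (0.95 to 1.16), so neither marker set capillary barcodes above arterial ones. Against the endocardium the Tcf15 ratio was 6.44 (5.35 to 7.83), and against all non-endothelial barcodes it was 50.9. Btnl9 and Tcf15 were thus over 2-fold higher than in the endocardium and in the rest of the heart, and neither reached 2-fold the arterial level.

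**Figure D1:**
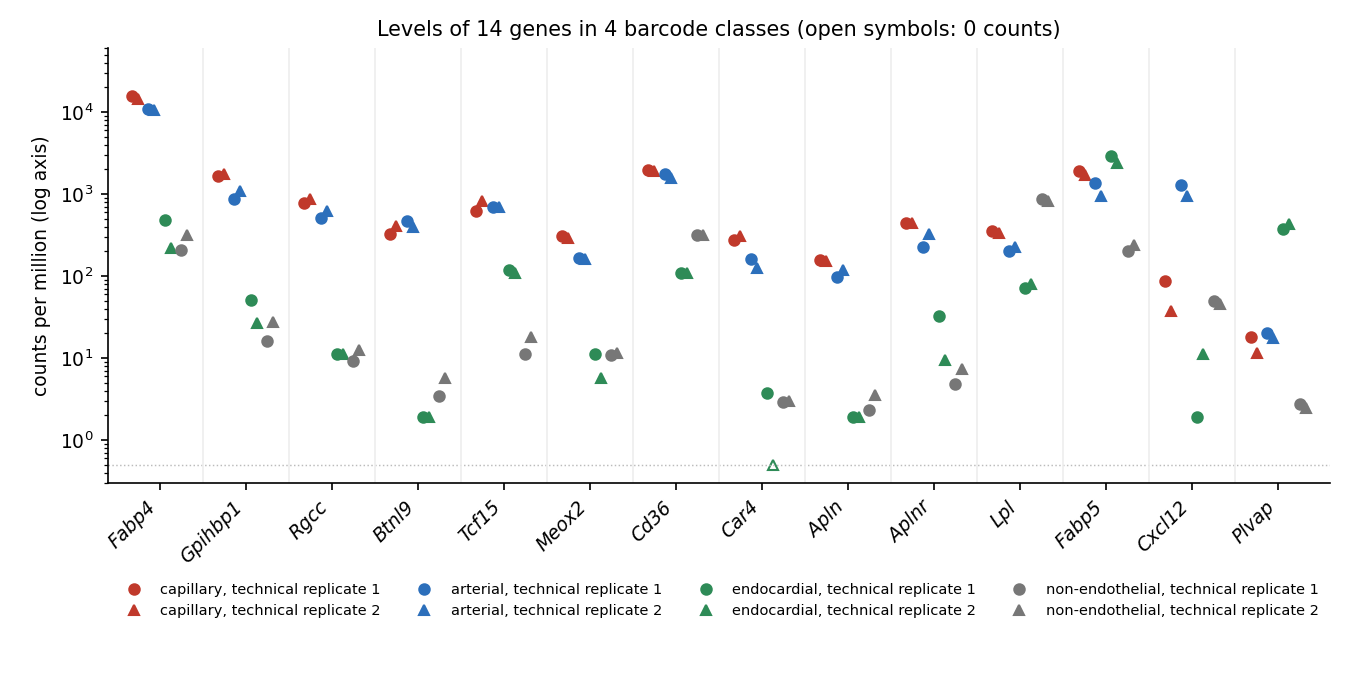
Levels of 14 genes in the capillary, arterial, endocardial and non-endothelial classes, in CPM of summed counts on a log axis, with a circle for technical replicate 1 and a triangle for technical replicate 2; an open symbol stands for 0 counts and is drawn at 0.5 CPM. Fabp4, Gpihbp1 and Rgcc chose the members. Btnl9 and Tcf15 sit together in the capillary and arterial classes, and Plvap and Fabp5 sit lower in both than in the endocardial class.

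Barcode by barcode the marker set was uneven. Per barcode, Fabp4 ran from 0 to 37261 CPM with a median of 14327 CPM, and 0.333% of the 300 barcodes had no count of it. Gpihbp1 had a median of 1643 CPM and was missing from 3.0% of barcodes, while Btnl9 had a median of 286 CPM and a highest value of 2548 CPM, and was missing from 29.0%. Tcf15 had a median of 569.6 CPM, a highest value of 3299 CPM and 14% without a count. All 5 markers were detected in 177 barcodes (59.0%), 4 in 85, 3 in 23, 2 in 13 and 1 in 2, and none lacked all 5.

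Markers of other cell types were low but present. The 12 cardiomyocyte markers summed to 1733 CPM in the capillary class (1627 and 1838), 1328 CPM in the arterial class, 1457 CPM in the endocardial class and 28829.5 CPM in non-endothelial barcodes, and none of the 12 was at 0. Of the 300 capillary barcodes, 259 had at least 5 counts of them. The 10 fibroblast markers summed to 379 CPM (559 in technical replicate 1 and 199 in technical replicate 2), with 5 counts or more in 18 barcodes, against 828 CPM in arterial and 2499 CPM in endocardial barcodes. Pericyte markers summed to 175 CPM, with Vtn at 0, smooth muscle markers to 170 CPM and macrophage markers to 65.8 CPM, and 11, 8 and 6 barcodes held at least 5 counts of each. The 8 genes of the arterial list that the rule did not use summed to 374 CPM, against 1294 CPM in the arterial class, and the 6 such genes of the endocardial list to 44.5 CPM, against 1084 CPM in the endocardial class, with Smoc1 at 0. Lymphatic markers summed to 90.9 CPM, and 48 of the 51 counts of Ccl21a, a lymphatic chemokine, came from 1 barcode. Venous markers summed to 1252 CPM, against 893 CPM in the arterial class. The capillary sum came mostly from Aplnr and Nrp2, which capillaries also express. Ackr1 and Tll1 were at 0 and Selp had 1 count, but Nr2f2, a venous factor, had a count in 26.3% of capillary barcodes. Of 7 measured venous genes, 3 (Ephb4, Aplnr and Nrp2) were at least 2-fold higher than in non-endothelial barcodes and 1 was lower. The rule set no limit on venous genes, and whether venous cells were among the members was not tested. The part that RNA of other cells played in any difference below was not tested.

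Against arterial barcodes, the capillary class differed in few genes. A gene was measured when it had at least 20 counts in each technical replicate of either class, and it was counted as different when its CPM differed at least 2-fold in the same direction in both replicates. Of 5828 measured genes, 50 (0.858%) were higher in capillary barcodes and 47 (0.806%) were lower, and the median log2 ratio over all of them was -0.01. The lower genes included the chemokine Cxcl12 and a set known from arteries, and the higher genes included a nucleoside transporter, a polyamine enzyme and several genes of DNA synthesis. With 1 technical replicate alone, replicate 1 gave 260 higher and 166 lower genes, and replicate 2 gave 348 and 136, since a gene then had to pass only once.

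Cxcl12 is the chemokine that guides vessel and immune cells through the receptor CXCR4. Among genes with at least 100 arterial counts it was furthest below the arterial level. It had 87.9 and 37.8 CPM in capillary barcodes and 1276 and 962 CPM in arterial barcodes, an arterial level 18.1 times the capillary one (15.1 to 22.0). The arterial CPM was the higher one in both replicates, although the capillary value of replicate 1 was over 2-fold that of replicate 2. A capillary cell carried at least 1 count of it, at 2000 counts a barcode, in 8.11% of 296 barcodes, against 58.2% of 55 arterial and 4.39% of 1571 cardiomyocyte barcodes.

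The arterial list, of which 6 genes outside the rule were measured, had 5 lower and 0 higher in capillary barcodes (median log2 -2.26). Hey1, a target of Notch signalling, had 31.9 CPM against 196 CPM in arterial barcodes, and Jag1, a Notch ligand, 15.5 against 116 CPM. Efnb2, the ephrin that marks arteries, had 84.0 and 104 CPM in capillary barcodes and 255 and 281 CPM in arterial barcodes. Unc5b, a netrin receptor, had 122 and 162 CPM against 593 and 452 CPM, a ratio of 0.266 (0.229 to 0.310). Sema3g, a semaphorin, had a ratio of 0.109 (0.0583 to 0.192). All 5 were lower in both replicates, and none of them was a gene of the rule, but the arterial class was chosen on other arterial genes that are known to go with them. Unc5b, which is also on the tip cell list, was detected in 21.3% of capillary barcodes at 2000 counts. It was found in 50.9% of arterial, 2.11% of endocardial, 8.91% of non-endothelial and 5.6% of cardiomyocyte barcodes. The 8 arterial list genes outside the rule summed to 374 CPM in capillary and 399 CPM in endocardial barcodes.

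The other genes furthest below the arterial level were mixed in role. Stmn2, a microtubule regulator best known from neurons, had a ratio of 0.0921 (0.0647 to 0.129), with 21.3 CPM in capillary and 231 CPM in arterial barcodes. Atp13a3, a transport ATPase for polyamines, had 22.3 CPM against 182 CPM. Matrix genes were among them, with Fn1 (fibronectin) at 88.5 against 569 CPM and Fbln5 (fibulin 5, of elastic fibres) at 19.8 against 129.5 CPM. Glul, the glutamine synthetase, had 76.9 CPM against 433 CPM, Cdk19 23.2 against 128 CPM and S100a6 50.8 against 256 CPM. Acta2, the smooth muscle actin, had 25.6 CPM against 207 CPM, but 55.2% of its arterial counts lay in 1 barcode, and it is itself on the smooth muscle list, so leaving out barcodes with 5 or more counts of fibroblast, pericyte, smooth muscle or macrophage markers takes out its arterial counts by construction (ratio 1.62). That step left 30 arterial barcodes, 22 lower genes (17 of them among the 47) and 70 higher genes (19 of them among the 50).

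The genes higher in capillary than in arterial barcodes had smaller ratios. Slc28a2, a sodium-driven carrier of nucleosides, had 64.7 and 64.9 CPM in capillary barcodes and 11.2 and 20.5 CPM in arterial barcodes, a ratio of 4.25 (2.36 to 8.44). Odc1, the first enzyme of polyamine synthesis, had 239.5 and 198 CPM against 82.9 and 58.6 CPM, a ratio of 3.02 (2.29 to 4.05). Fhl3, a LIM domain protein, had a ratio of 3.33 (1.83 to 6.66). Ramp3, which shapes the receptors for adrenomedullin, had a ratio of 2.79 (1.62 to 5.16) and Adm, the gene of adrenomedullin itself, 33.9 CPM against 12.7 CPM. Gpr182, a chemokine-binding receptor, had 71.6 CPM against 27.9 CPM, Chst1, a sulfotransferase for sugar chains, 75.9 against 34.3 CPM, and Maea, a subunit of a ubiquitin ligase, a ratio of 2.32 (1.44 to 3.94). The potassium channel subunit gene Kcne3, of the tip cell list, had 33.9 CPM against 6.35 CPM, and the receptor tyrosine kinase gene Kit 46.0 against 20.3 CPM.

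Several of these genes belong to DNA synthesis. Pclaf, which binds the replication clamp, had 63.7 and 163 CPM in capillary barcodes and 26.9 and 35.2 CPM in arterial barcodes, a ratio of 3.71 (2.44 to 5.91). Tyms, the thymidylate synthase, had a ratio of 3.0 (1.78 to 5.41) and Hells, a chromatin remodeller, 2.69 (1.59 to 4.87). The rule caps the summed counts of genes that mark dividing cells, and Pclaf, Tyms and Hells are not among those genes. The cap is in absolute counts, which the deeper arterial barcodes reach sooner. When the limit on dividing cells was dropped for all classes, 490 capillary and 94 arterial barcodes were compared, and 22 genes were higher in capillary barcodes, 6 of them among the 50. Restricted to barcodes with at least 8000 counts, 21 genes were higher, 13 of them among the 50, and with all barcodes thinned to 2000 counts 41 were higher, 4 of them among the 50. Of the lower genes, 25 of 41, 36 of 43 and 9 of 11 under these 3 settings were among the 47. Depth and the cell cycle therefore moved with the set of higher genes, and their part in it was not tested.

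**Figure D2:**
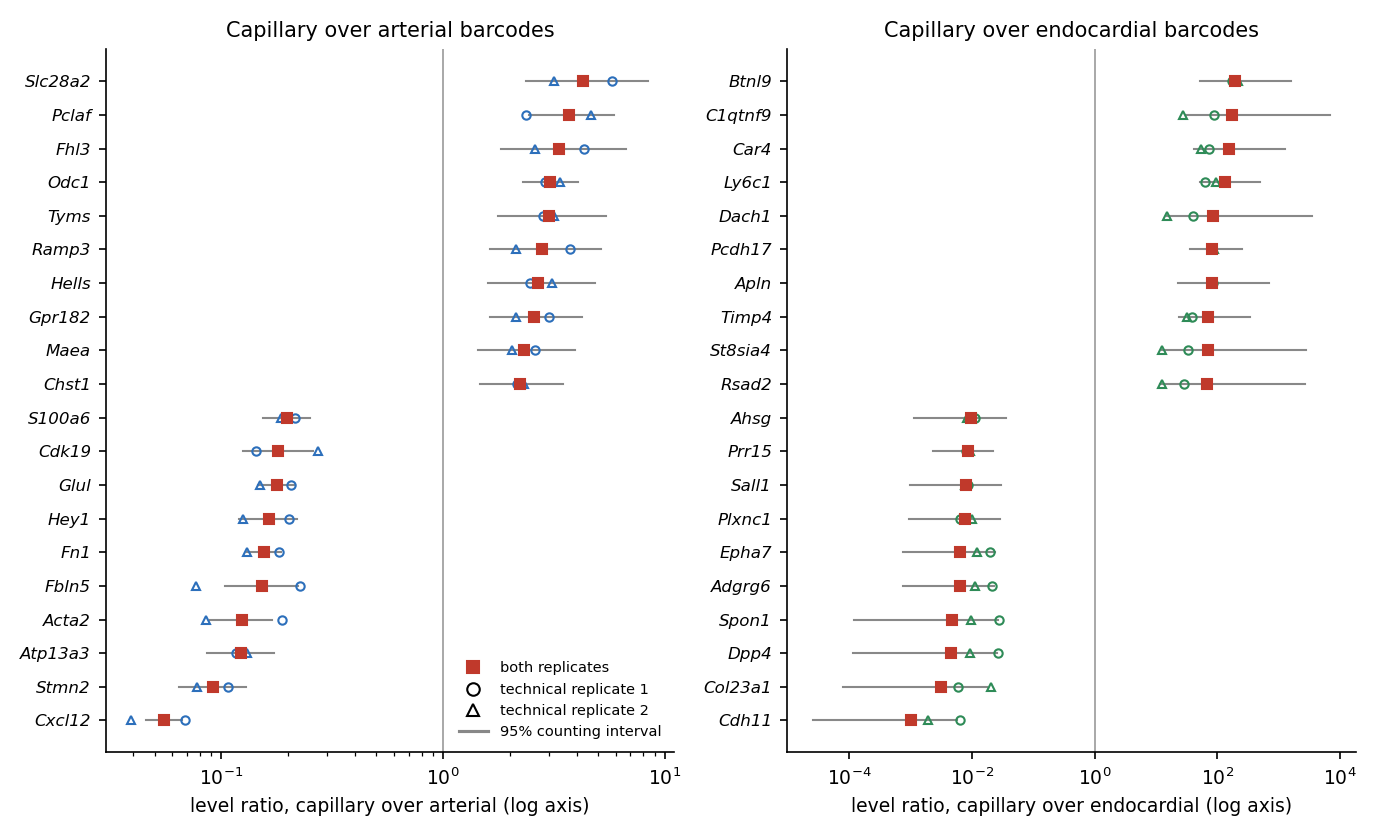
Ratios of CPM for the 10 genes furthest above and the 10 furthest below the other class, capillary over arterial in 1 panel and capillary over endocardial in the other, on a log axis; filled squares are both technical replicates summed, open circles replicate 1, triangles replicate 2, and grey lines 95% counting intervals. Among genes with at least 100 counts in the higher class, ratios over arterial barcodes reach 4.25 for Slc28a2 and 0.0552 for Cxcl12. Those over endocardial barcodes reach 192 for Btnl9 and 0.00101 for Cdh11.

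Genes of fatty acid uptake were mostly higher in capillary than in endocardial barcodes. Of 15 measured genes of the uptake list outside the rule, 0 were higher and 0 lower than in arterial barcodes (median log2 0.33), which is near the 0.858% and 0.806% over all genes and says nothing particular of the list. Against endocardial barcodes 10 were higher and 0 lower (median log2 1.49), where 466 of 6097 measured genes (7.64%) were higher and 533 (8.74%) lower, with a median of 0.00. The list was chosen with earlier results of these libraries known, so its direction is a description.

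Meox2 (chromosome 12, 37108540 to 37179534), the homeobox partner of TCF15, had 305 and 289 CPM in capillary barcodes, 168 and 161 CPM in arterial barcodes and 8.52 CPM in endocardial barcodes. Its ratio was 1.80 over arterial (1.49 to 2.19) and 34.9 over endocardial barcodes (18.2 to 76.6), above 1 in both replicates. Meox1, its relative, had 148 CPM in capillary, 91.4 CPM in arterial and 6.63 CPM in endocardial barcodes. The pair and Tcf15 thus shared 1 order of classes, capillary and arterial high and endocardium low. At 2000 counts a barcode, Meox2 was detected in 41.6% of capillary, 23.6% of arterial, 0 of 142 endocardial (3 of 142, the limit that a count of 0 allows, is 2.11%, and 2.1% had a count before thinning) and 0.446% of cardiomyocyte barcodes, and Tcf15 in 64.5%, 65.5%, 12.0% and 0.637%.

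Cd36 (chromosome 5, 17781690 to 17888801, minus strand), the fatty acid translocase, had 1945 and 1888 CPM in capillary barcodes, 1753 and 1586 CPM in arterial barcodes and 110.1 and 108 CPM in endocardial barcodes, a ratio over endocardium of 17.6 (14.6 to 21.4). It was detected in 89.9% of capillary and 16.2% of endocardial barcodes at 2000 counts, but also in 40.9% of cardiomyocyte barcodes, which use it too. Pparg, the nuclear receptor that governs fat storage genes, had 47.9 CPM in capillary and 44.4 CPM in arterial barcodes and 3 counts in all endocardial barcodes. Aqp7, a glycerol channel, had 111 and 141 CPM in capillary and 100.3 CPM in arterial barcodes and no count in endocardial barcodes, which puts it at least 44.3-fold higher than a floor of 3 counts over that class. Angptl4, a secreted inhibitor of lipoprotein lipase, had 186 and 202 CPM in capillary, 107 CPM in arterial and 9.47 CPM in endocardial barcodes. Scarb1, a receptor for high-density lipoprotein, and Lipe, a lipase of stored fat, were 2.80 times (2.1 to 3.79) and 2.55 times (1.48 to 4.68) the endocardial level.

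Fabp5 did not follow the list against the endocardium, and Lpl was among 6 of 22 list members (with Slc27a1, Vldlr, Dgat2, Acsl1 and Fabp3) that were lower than in non-endothelial barcodes, where 10 were higher. Lpl, the lipase itself, had 357 and 331 CPM in capillary barcodes, 212 CPM in arterial and 76.7 CPM in endocardial barcodes, but 856 CPM in the non-endothelial class, a ratio of 0.402 to that class. At 2000 counts it was found in 41.6% of capillary and 68.7% of cardiomyocyte barcodes, and the part of free RNA from muscle cells in the capillary value was not tested. Fabp5, which binds fatty acids as FABP4 does, had 1922 and 1703 CPM in capillary and 1173 CPM in arterial barcodes, and was more abundant in endocardial barcodes, at 2941 and 2412 CPM. The Fabp4 level gives no contrast to this, since Fabp4 chose the members. Of 14 measured enzymes that burn fatty acids in mitochondria, 0 were higher or lower than in arterial barcodes and 1 was higher than in endocardial ones, shares near those over all genes. Against non-endothelial barcodes 12 of 16 were lower, where 13.7% of all measured genes were.

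The capillary and endocardial classes differed far more widely than capillary and arterial ones. Among genes with at least 100 capillary counts, the 10 furthest above the endocardium had at most 5 counts in all endocardial barcodes together. C1qtnf9, a secreted relative of adiponectin, had 166 and 155 CPM in capillary barcodes and 1 count in all endocardial barcodes, a ratio of 169.6 (30.2 to 6721). Car4 (chromosome 11, 84957786 to 84966044), a carbonic anhydrase anchored on the vessel surface, had 274 and 304 CPM against 2 counts, a ratio of 153 (42.1 to 1264), and 147 CPM in arterial barcodes. Ly6c1, a surface protein of the Ly6 family, had 474 and 543 CPM against 4 counts, and 598 CPM in arterial barcodes. All 3 were at or close to 0 in the endocardium in both replicates. Since Ly6a, Ly6c1 and Ly6c2 are neighbours of 1 gene family, their single values are uncertain where reads cannot tell them apart. Dach1, a transcription cofactor, and the cadherin gene Pcdh17 had 81.3 and 389 CPM in capillary barcodes against 1 and 5 counts. The matrix protease inhibitor gene Timp4 had 200.3 CPM against 3 counts, and 109 CPM in arterial barcodes. The sialyltransferase gene St8sia4 and the antiviral gene Rsad2 had 66.3 and 62.9 CPM against 1 count each.

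Among genes with at least 100 endocardial counts, the 10 furthest below the endocardium had at most 4 counts in all capillary barcodes together. Cdh11, a cadherin that is one of the endocardial markers of the check but not of the rule, had 1 count in capillary and 506 counts in endocardial barcodes. Col23a1, Dpp4 and Spon1 also had 1 capillary count each, against 163, 112 and 108 endocardial counts. Adgrg6, an adhesion receptor, the ephrin receptor gene Epha7, the semaphorin receptor gene Plxnc1, the transcription factor gene Sall1 and Ahsg (fetuin A) had 2 capillary counts each, against 162, 160, 130, 125 and 106 endocardial counts, and Prr15 had 4 against 239. None of these 10 reached 1% of its endocardial CPM in capillary barcodes. Endocardial barcodes also carried more fibroblast and smooth muscle markers, and without barcodes holding 5 or more counts of fibroblast, pericyte, smooth muscle or macrophage markers 29 endocardial barcodes remained, with 285 higher genes (167 of them among the 466) and 53 lower genes (46 of them among the 533). Technical replicate 1 alone gave 736 higher and 798 lower genes, and replicate 2 alone 839 and 892.

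Apelin signalling was seen on both sides. Apln (X chromosome, 48025146 to 48034853, minus strand), the ligand gene, had 158 and 151 CPM in capillary barcodes, 108 CPM in arterial barcodes and 2 counts in all endocardial barcodes. Aplnr (chromosome 2, 85136225 to 85139923), the receptor gene, had 442 and 445 CPM in capillary, 272 CPM in arterial and 20.8 CPM in endocardial barcodes, a ratio over endocardium of 21.3 (14 to 34.2). Neither reached the 2-fold rule against arterial barcodes, where the Aplnr ratio was 1.63 (1.41 to 1.90). At 2000 counts Aplnr was found in 54.4% of capillary, 25.5% of arterial, 2.82% of endocardial and 0.318% of cardiomyocyte barcodes, and Apln in 21.6%, 10.9%, 0.704% and 0.318%. In the tip cell list as a whole, of 16 measured genes 11 were higher and 1 lower than in endocardial barcodes (median log2 1.69), and 2 were higher and 1 lower than in arterial ones (median log2 0.10). Over all measured genes 7.64% were higher and 8.74% lower than in endocardial barcodes, and 0.858% and 0.806% than in arterial ones. Pdgfb, which draws pericytes to vessels, had 89.0 CPM in capillary, 156 CPM in arterial and 3.79 CPM in endocardial barcodes.

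Among receptors, 9 of 47 measured genes were higher and 16 lower than in endocardial barcodes (median log2 -0.46), and 3 of 42 higher and 2 lower than in arterial ones. Over all measured genes the shares were 7.64% and 8.74% against endocardial barcodes, and 0.858% and 0.806% against arterial ones. Kdr, the main receptor for vascular endothelial growth factor, had 656 and 634 CPM in capillary barcodes, 750.3 CPM in arterial and 278 CPM in endocardial barcodes, a ratio over endocardium of 2.32 (2.04 to 2.64). Flt1, the second receptor for that factor, went the other way with 357 CPM in capillary, 585 CPM in arterial and 491 CPM in endocardial barcodes, short of 2-fold. Nrp2, a coreceptor, had 599 CPM in capillary, 378 CPM in arterial and 162 CPM in endocardial barcodes. The lower receptors included those for angiopoietins (Tek, 120.0 CPM in capillary and 399 CPM in endocardial barcodes), Notch ligands (Notch1, 116 and 348 CPM), bone morphogenetic proteins (Bmpr2, 66.8 and 164 CPM, and Eng, 333 and 906 CPM) and endothelin (Ednrb, 147 and 748 CPM). Calcrl, the receptor with which RAMP proteins bind adrenomedullin, had 54.7 CPM in capillary, 45.7 CPM in arterial and 229 CPM in endocardial barcodes.

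Of 31 measured secreted signals, 9 were higher and 14 lower than in endocardial barcodes (median log2 -0.61), where 7.64% and 8.74% of all measured genes were. Without barcodes with 5 or more counts of other-type markers the list's median turned to 0.70, with 6 higher and 5 lower of 21, and with 2000 counts a barcode to 0.04, with 7 higher and 5 lower of 17. Of 26 measured against arterial barcodes, 1 was higher and 6 lower (median log2 -0.35), where 0.858% and 0.806% of all measured genes were. Kitl, the ligand of the Kit receptor, had 403 and 448 CPM in capillary barcodes, 423 CPM in arterial and 57.7 CPM in endocardial barcodes. Igfbp3 and Igfbp7, which bind insulin-like growth factors, were 3.88 times (2.86 to 5.38) and 6.18 times (5.30 to 7.26) the endocardial level. Igfbp5, of the same family, had 87.6 CPM in capillary and 2944 CPM in endocardial barcodes, and Igf2, the fetal growth factor, 369 and 3565 CPM. Binding proteins of 1 family thus stood on opposite sides of this comparison. Tgfb2, a transforming growth factor, was lower than in all 3 classes, with 8.22 CPM in capillary, 58.4 CPM in arterial, 128 CPM in endocardial and 49.1 CPM in non-endothelial barcodes.

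Transcription factors stood on both sides. Against endocardial barcodes 11 of 45 measured factors, Tcf15 and Meox2 among them, were higher and 10 lower (median log2 0.01), and against arterial barcodes 0 of 41 were higher and 2 lower (Hey1 and Mecom). Of all measured genes, 7.64% were higher and 8.74% lower against endocardial barcodes, and 0.858% and 0.806% against arterial ones. The higher ones included the ETS factors Ets1 (426 CPM in capillary and 165 CPM in endocardial barcodes) and Fli1 (316 and 143 CPM), and Sox18 (280.1 and 82.4 CPM), a factor of vascular development. Erg, another ETS factor, differed little, at 92.4 CPM in capillary and 108 CPM in endocardial barcodes. Tbx3, a T-box factor, had 61.9 CPM in capillary and 87.6 CPM in arterial barcodes and no endocardial count, at least 21.8-fold higher than a floor of 3 counts over that class. Wt1, best known from the epicardium, had 120.4 CPM in capillary, 107 CPM in arterial and 36.9 CPM in endocardial barcodes, while the 5 epicardial markers summed to 7.74 CPM in the capillary class. The lower factors included Gata4 (8.22 and 87.1 CPM), a cardiac and endocardial factor, Nr2f2 (64.8 and 306 CPM), a venous factor, and Foxp1 (168 and 687 CPM).

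**Figure D3:**
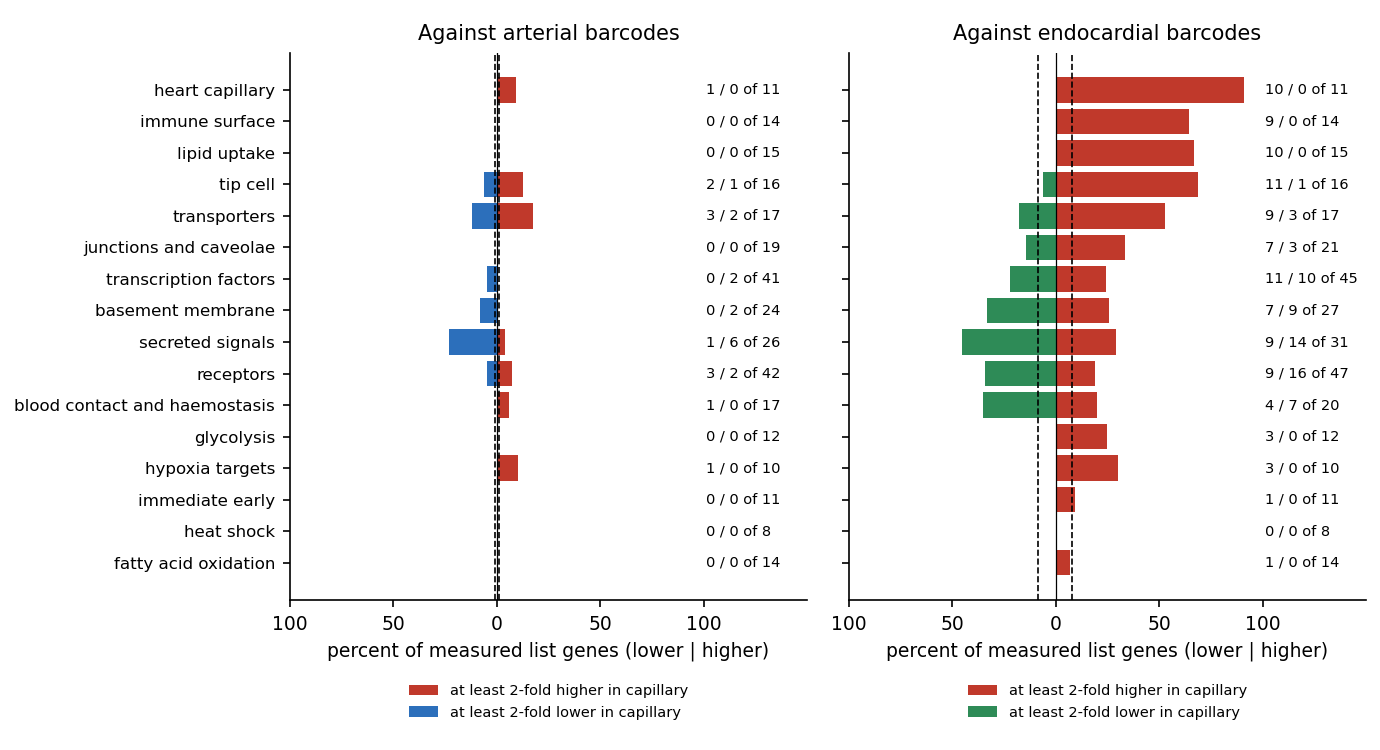
Percent of the measured genes of 16 lists that were at least 2-fold higher (right of 0) or lower (left of 0) in capillary barcodes than in arterial barcodes (left panel) and endocardial barcodes (right panel), in both technical replicates; dashed lines mark the same percent over all measured genes, and the numbers give higher and lower genes of those measured. Against endocardial barcodes the heart capillary list has 10 higher and 0 lower of 11 and lipid uptake 10 and 0 of 15, while against arterial barcodes both have at most 1 gene past 2-fold.

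The capillary wall itself also differed from the endocardium. Of 21 measured genes of junctions and caveolae, 7 were higher and 3 lower (median log2 0.74), where 7.64% and 8.74% of all measured genes were. Against arterial barcodes 0 of 19 were higher or lower, which is near the 0.858% and 0.806% over all genes and says nothing particular of the list. Cav1, the coat protein of caveolae, had 2392 and 2371 CPM in capillary barcodes, 2528 CPM in arterial and 577 CPM in endocardial barcodes, and Cav2 and Cavin1, which build the same pits, were 4.22 times (3.56 to 5.03) and 3.10 times (2.74 to 3.51) the endocardial level. These 3 caveolar genes were thus higher, while Cavin2 and Cavin3 of the same list did not pass the 2-fold rule in either direction. Plvap, which forms the diaphragms of fenestrae and caveolae, had 18.4 and 11.6 CPM in capillary, 19 CPM in arterial and 376 and 436 CPM in endocardial barcodes, a ratio over endocardium of 0.0369 (0.0248 to 0.0532). It was found in 3.72% of capillary and 55.6% of endocardial barcodes at 2000 counts, and in 0.127% of cardiomyocyte barcodes, which were chosen without counts of Pecam1 and Cdh5. Cgnl1, a junction adaptor, was also lower, at 44.0 CPM in capillary and 630.4 CPM in endocardial barcodes, and Esam, an adhesion molecule of endothelial junctions, higher, at 551 and 195 CPM.

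The basement membrane list had 7 genes higher and 9 lower of 27 against the endocardium (median log2 -0.05), where 7.64% and 8.74% of all measured genes were. Collagen IV was on the higher side, with Col4a1 at 1585 CPM in capillary, 1803 CPM in arterial and 723 CPM in endocardial barcodes and Col4a2 at 2.68 times the endocardial level (2.38 to 3.02). Sparcl1, a matricellular protein, had 948 and 938 CPM in capillary, 697 CPM in arterial and 36.9 CPM in endocardial barcodes. Nid2, a nidogen, and Col15a1 were 6.40 times (4.18 to 10.3) and 19.4 times (9.73 to 45.4) the endocardial level. Hmcn1, Fn1 and Vwf stood on the lower side. Hmcn1, hemicentin, had 117 CPM in capillary and 1761 CPM in endocardial barcodes. Vwf, the von Willebrand factor of larger vessels and veins, had 9.19 CPM in capillary, 11.4 CPM in arterial and 190.3 CPM in endocardial barcodes.

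Of 14 measured genes of the immune surface list, 9 were higher and 0 lower than in endocardial barcodes (median log2 1.63). Of all measured genes 7.64% and 8.74% were. Against arterial barcodes 0 of the list were higher or lower (median log2 -0.08). That is near the 0.858% and 0.806% over all genes and says nothing particular of the list. The class I antigen presentation genes H2-D1 and H2-K1 were 2.30 times (1.98 to 2.69) and 4.97 times (2.92 to 9.11) the endocardial level. Ifitm3 and Isg15, which interferon induces, were 2.49 times (2.26 to 2.75) and 3.85 times (2.24 to 7.10). The surface genes Ly6a and Ly6e had 256 and 877 CPM in capillary, 476 and 971 CPM in arterial, and 8.52 and 71.0 CPM in endocardial barcodes. Macrophage markers were at 65.8 CPM in capillary and 97.5 CPM in endocardial barcodes, and the part of white cell RNA in the values of this list was not tested.

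Of 17 measured transporters and channels, 9 were higher and 3 lower than in endocardial barcodes (median log2 1.22), and 3 higher and 2 lower than in arterial ones. The shares over all measured genes were 7.64% and 8.74% against endocardial barcodes, and 0.858% and 0.806% against arterial ones. Aqp1, the water channel, had 461 CPM in capillary, 283 CPM in arterial and 129.7 CPM in endocardial barcodes. The drug efflux pump genes Abcg2 and Abcb1a had 128 and 30.5 CPM in capillary barcodes and 132 and 53.3 CPM in arterial ones, against 43.5 CPM and 1 count in endocardial barcodes. Slc6a6, the taurine carrier, had 346 CPM in capillary barcodes and 1017 CPM in arterial barcodes. Among genes of blood contact and haemostasis, 4 of 20 were higher and 7 lower than in endocardial barcodes (median log2 -0.51), with Icam2 (507 and 166 CPM) and Cd34 (1139 and 281 CPM), adhesion proteins of vessel walls, higher, and Procr, the protein C receptor, lower (6.77 and 38.8 CPM).

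Without barcodes holding 5 or more counts of fibroblast, pericyte, smooth muscle or macrophage markers, 5.40% of all 5276 genes still measured were higher and 1.00% lower against the endocardium, so lower genes became fewer in general. Receptors then had 6 higher and 3 lower of 42 measured, secreted signals 6 and 5 of 21 (median log2 0.70), basement membrane genes 5 and 3 of 23, transcription factors 8 and 3 of 40 and genes of blood contact 4 and 0 of 15. Lipid uptake (6 and 0 of 14), the immune surface (5 and 0 of 13) and the heart capillary list (7 and 0 of 11) kept members on 1 side, with 29 endocardial barcodes left.

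Genes known from the capillaries of other organs were mostly low or shared. For comparison, 7.64% of all measured genes were higher and 8.74% lower than in endocardial barcodes, and 0.858% and 0.806% than in arterial ones. Of 15 genes of brain capillaries, 8 had no count in the capillary class and 3 were measured, of which Pltp, a phospholipid carrier, was 18.2 times the endocardial level. Of 7 measured genes of lung capillaries, 3 were higher (Car4, Tbx3 and Chst1) and 3 lower (Ednrb, Hmcn1 and Lyve1) than in endocardial barcodes. Of 4 measured genes of liver sinusoids, 0 were higher and 4 lower, among them Stab1, a scavenger receptor, at 42.6 CPM in capillary and 135 CPM in endocardial barcodes. Of 7 measured genes of kidney endothelium, 1 was higher (Lpl) and 5 lower. The list of heart capillary genes had 10 higher and 0 lower of 11 measured against endocardial barcodes (median log2 4.14) and 1 higher and 0 lower against arterial ones (median log2 0.33).

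Genes that respond to handling or to the state of a cell were set beside the shares over all measured genes. Those were 7.64% higher and 8.74% lower against endocardial barcodes, and 0.858% and 0.806% against arterial ones. Of 11 measured immediate early genes, which dissociation is known to induce, 1 (Dusp1) was higher than in endocardial barcodes and 0 were lower, and against arterial barcodes 0 were higher or lower. Of 8 measured heat shock genes, 0 were past 2-fold in either comparison. The shares of the immediate early and heat shock lists were near those over all genes and say nothing particular of them. Of 12 measured glycolysis genes, 3 (Gapdh, Pkm and Ldha) were higher than in endocardial barcodes, and of 10 hypoxia targets 3 were higher. Both shares were above that over all genes, with median log2 ratios of 0.69 and 0.54. The flow-responsive factor gene Klf2 had 994 CPM in capillary, 1249 CPM in arterial and 1104 CPM in endocardial barcodes, within 2-fold of each other. Egfl7, an endothelial matrix gene, was also alike in level, at 1030.3, 1252 and 1034 CPM.

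Against the 8782 non-endothelial barcodes, 1733 of 12761 measured genes (13.6%) were higher and 1742 (13.7%) lower in capillary barcodes, and the median log2 ratio over all measured genes was 0.25. The counts depended on the scaling, and the part of the high mitochondrial share of those barcodes in this shift was not tested. Once mitochondrial and haemoglobin counts were taken out of the totals there were 1027 higher and 2431 lower, and with median-of-ratios size factors 1095 and 2336. With barcodes under 20% mitochondrial counts, which left 2778 non-endothelial ones, there were 839 and 2056. Among genes with at least 100 capillary counts, the furthest above were Slc28a2 at 101 times (67.6 to 156) and Car4 at 98.8 times (81.9 to 119.8). C1qtnf9 at 91.6 times and Clec1a, a lectin receptor, at 91.4 times came next. Aqp7, Btnl9, Ccdc85a, Myct1, Aplnr and Cyyr1 completed the 10, at 72.9 to 87.8 times. Slc28a2, Car4, C1qtnf9, Aqp7 and Btnl9 thus stood far above both the endocardial and the non-endothelial barcodes. Of these, only Slc28a2 (4.25) and C1qtnf9 (2.07) passed the 2-fold rule over arterial barcodes, and Btnl9 was below its arterial level. The furthest below was Corin, the protease that activates natriuretic peptides in heart muscle, with 1 count in capillary barcodes against 3301 counts, and Tbx5, a heart muscle factor, had a ratio of 0.00840. All 12 measured cardiomyocyte markers were lower (median log2 -4.11). Among receptors, 36 of 54 were higher and 2 lower (median log2 2.98), and among transcription factors 33 of 49 were higher and 7 lower (median log2 2.39). With the totals freed of mitochondrial and haemoglobin genes the same counts were 33 and 3 for receptors and 31 and 7 for factors.

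Only 13 genes were at least 2-fold higher in capillary barcodes than in all 3 other classes, and 3 were lower than in all 3. A gene had to be measured in all 3 comparisons, so these come from the 50 higher and 47 lower genes of the arterial comparison. The 13 were Chst1, Slc28a2, Tmem255a, Cyp4b1, Fhl3, Tyms, Il16, Slco2b1, Kcne3, C1qtnf9, Gm12002, Piezo2 and Hells. Tmem255a, a membrane protein, had 205 and 189 CPM in capillary, 94.0 CPM in arterial, 5.68 CPM in endocardial and 3.08 CPM in non-endothelial barcodes. Piezo2, a mechanically gated ion channel, had 35.3 CPM in capillary and 11.4 CPM in arterial barcodes, no endocardial count and 3.70 CPM in the rest. Il16, a cytokine precursor, had 31.9 CPM in capillary, 6.35 CPM in arterial, 7.57 CPM in endocardial and 1.86 CPM in non-endothelial barcodes. The 3 lower genes were Tgfb2, Mfap2 (45.5, 212, 448 and 206 CPM in the same order of classes) and Col1a2 (43.0, 133, 503 and 654 CPM). These genes were singled out after their values were seen, and the arterial comparison, with 55 barcodes, is the narrowest of the 3. Over all settings where it could be given, the ratio over arterial barcodes fell to 1.25 for Hells, 1.36 for Chst1, 1.52 for Tyms and 1.95 for Fhl3. That of Slc28a2 stayed at 2.39 or more. At 2000 counts a barcode, only 4 of the 50 genes higher than in arterial barcodes passed the rule again.

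Shares of barcodes with a count were compared at equal depth. Each barcode was thinned to 2000 counts, which left out 4 capillary, 0 arterial, 1 endocardial and 22 cardiomyocyte barcodes. Cardiomyocyte barcodes (median 5805 counts before thinning, against 5330 in capillary ones) were set beside them as another cell type. They were chosen to have no count of Pecam1 or Cdh5, so their low shares of endothelial genes follow in part from that choice. Btnl9 was detected in 48.6% of capillary (71.0% before thinning), 43.6% of arterial, 0 of endocardial and 0.191% of cardiomyocyte barcodes, and since its capillary CPM was below the arterial one no order of these 2 classes is read from the shares. Car4 was detected in 38.9% of capillary (57% before thinning), 16.4% of arterial, 0.704% of endocardial and 0.255% of cardiomyocyte barcodes. Ly6c1 was in 53.7%, 54.5%, 0 and 0.827% of the same classes, and Nrp2 in 62.8% of capillary, 32.7% of arterial and 24.6% of endocardial barcodes. Fabp5 was in 91.9% of capillary, 74.5% of arterial and 95.8% of endocardial barcodes, but also in 16.5% of cardiomyocyte barcodes.

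**Figure D4:**
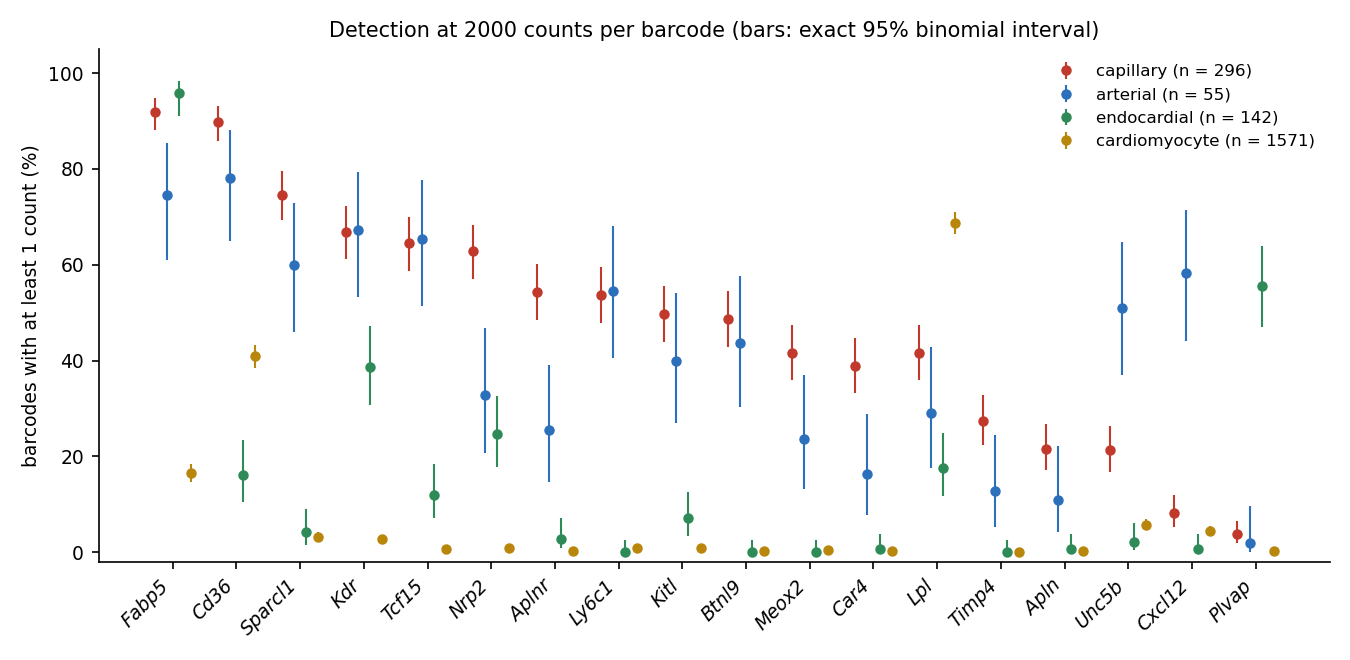
Percent of barcodes with at least 1 count of each of 18 genes after thinning to 2000 counts, in 296 capillary, 55 arterial, 142 endocardial and 1571 cardiomyocyte barcodes, with exact 95% binomial intervals that cover counting error only. Cd36 is found in 89.9% of capillary and 16.2% of endocardial barcodes, Plvap in 3.72% and 55.6%.

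Among the capillary barcodes themselves, the typical gene had a spread near that of counting once barcodes were thinned. Over 3208 genes with a mean of at least 0.1 count in 296 barcodes at 2000 counts, the median Fano factor (variance over mean, 1 for pure counting) was 1.04. Thinning and low means both draw this factor toward 1, so the median cannot show that most genes vary by counting alone. The genes of largest spread fell into 3 kinds. Mitochondrial genes formed the first kind together with Malat1 (19.3) and Actb (15.4), with mt-Atp6 the widest of them at 45.9 and mt-Nd2 the narrowest among the 30 at 4.48. Some genes had large factors from few barcodes. S100a8, of neutrophils, had 36.1 in both replicates together and 1.00 without the 33 barcodes with 5 or more counts of fibroblast, pericyte, smooth muscle or macrophage markers, and Meg3 and Mgp had 8.74 and 8.94 with those barcodes and 0.985 and 0.954 without them. Eln, of elastic fibres, had 108, though 4.09 in replicate 2, and Dcn and Col3a1, of fibroblasts, had 8.22 and 7.82. Those 3 genes are on the lists that choose the 33 barcodes, so their values without them say nothing of their spread.

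The third kind, of genes on none of those lists, had a similar spread without those barcodes. Fabp4 had a Fano factor of 8.23 with them and 7.73 without, Igfbp3 6.74 and 6.06, H19, an imprinted RNA of fetal growth, 5.33 in both cases, Rbp7, a retinol-binding relative of FABP4, 3.94 and 3.93, and Igfbp7 3.47 and 3.53. Cxcl12 had 7.58 and 8.04, though 2.69 in technical replicate 2, and 19.2% of its counts lay in 1 barcode. Pclaf had 3.57 and 3.79, with 1.53 in replicate 1 and 4.08 in replicate 2. Of the 30 genes of largest spread, 29 stayed among the 30 in replicate 1 alone, 23 in replicate 2 alone, 25 at 3000 counts a barcode (237 barcodes) and 20 without the 33 barcodes.

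**Figure D5:**
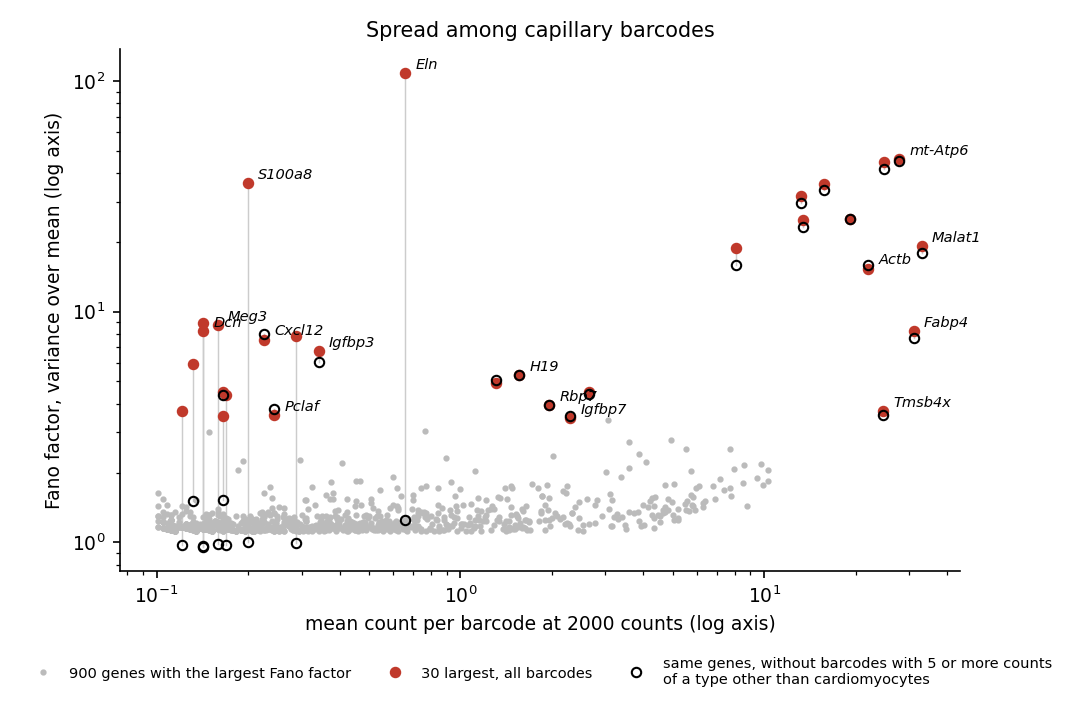
Fano factor (variance over mean) against mean count per barcode for capillary barcodes thinned to 2000 counts, both on log axes; grey points are 900 genes, red points the 30 genes of largest Fano factor and open circles those genes without the 33 barcodes that hold 5 or more counts of fibroblast, pericyte, smooth muscle or macrophage markers. S100a8 has 36.1 with them and 1.00 without, and Fabp4 8.23 and 7.73, and neither is on those lists; Eln is on one, which fixes its lower open circle.

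Some genes varied together from barcode to barcode, though weakly. Of 1081 pairs among 47 genes, 19 had a Spearman correlation of at least 0.3 in size over 296 barcodes at 2000 counts. The highest was between Cd36 and Fabp4, at 0.44 (0.40 in replicate 1 and 0.47 in replicate 2), followed by Cd36 with Rbp7 at 0.41 and Fabp4 with Rbp7 at 0.40. Car4 went with Fabp4 at 0.38 and with Cd36 at 0.37 (0.21 and 0.51). The 19 also held pairs outside fatty acid uptake, such as Igfbp7 with Sparc at 0.32 and Ly6a with Ly6c1 at 0.30. These barcodes share 2 libraries and a fixed total, and the Fabp4 count helped to choose them, so the values describe and do not test.

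The 300 members were 24.4% of the 1229 barcodes that passed the shared limits on genes, haemoglobin, Myl2 and Myl7, and Pecam1 and Cdh5. Of the rest, 207 failed only the capillary sum, 190 only the limit on dividing cells, 98 only the arterial limit and 10 only the endocardial limit. The 98 barcodes with too many arterial counts had a median of 12920 counts and the 190 with too many counts of dividing cells 11976.5, against 5330 in the members, so both limits took out deeper barcodes. Another 15 barcodes met every condition but lacked a count of Pecam1 and Cdh5, 38 failed only on haemoglobin and 31 only on Myl2 and Myl7. In 5 capillary cases the same barcode sequence was present in the other library.

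Barcodes just inside and just outside the limits were set side by side. Fabp4 is part of the capillary sum, so its step at that limit is made by the rule. The 8 barcodes just inside the capillary sum, at 8 to 15 counts, had 2523 CPM of Fabp4, 80.1 CPM of Btnl9 and 1922 CPM of the lymphatic gene Ccl21a. That Ccl21a value came from few barcodes, since 1 barcode held 48 of the 51 Ccl21a counts of the whole capillary class. The 112 just outside, at 1 to 7, had 241 CPM of Fabp4, 1.57 CPM of Btnl9, 4363 CPM of Col3a1 and 927 CPM of the pericyte gene Rgs5. At the arterial limit the 53 barcodes inside, with a sum of 2, had 399 CPM of Btnl9, 141 CPM of Unc5b and 141 CPM of Cxcl12. The 26 just outside, with a sum of 3, had 449 CPM of Btnl9, 243 CPM of Unc5b and 82.9 CPM of Cxcl12, at median depths of 7775 inside and 12227.5 outside. At the limit on dividing cells the 22 barcodes inside, with sums of 3 to 4, had 11863 CPM of Fabp4 and 374 CPM of Btnl9, and the 29 outside, with sums of 5 to 6, 9922 and 423 CPM. No test is attached to these values, since the rule itself made the edges.

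Between the technical replicates the capillary profile was close. Of 3274 genes with at least 100 counts, 13 differed over 2-fold and 79 over 1.5-fold, and log2(CPM + 1) had a Pearson r of 0.975 across genes, which are not independent replicates. Genes with more in replicate 2 were Pclaf (replicate 1 over replicate 2, 0.392, 95% counting interval 0.290 to 0.523), Cks1b (0.449) and E2f1 (0.462), all of the cell cycle. Genes with more in replicate 1 included S100a8, with 366 against 3 counts and 64.5% of them in 1 barcode, and Eln, with a ratio of 5.18 and 52.6% in 1 barcode. Meg3 (6.31), Dcn (4.16) and Cxcl12 (2.33, with 19.2% of its counts in 1 barcode) were also among them. The part of other cells in these differences was not tested. The 5 label markers differed less, with Tcf15 the widest at 631 CPM in replicate 1 and 833 CPM in replicate 2.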

How the data were processed

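The 2 count matrices deposited by the authors hold whole numbers for each barcode and gene, without normalization. Cell Ranger 2.1.0 and the mm10 assembly appear in the submitters' processing notes. Whether a count is a molecule or a read is not given in the sources used here. Of 27999 features, 27645 matched a GENCODE vM21 symbol on GRCm38. Classes were drawn by the limits given in the text, with no doublet removal beyond them. Within each technical replicate the counts of a class were added up (capillary 2067379 counts in all, arterial 787643, endocardial 1056395, non-endothelial 46778741) and scaled to CPM. Ratios carry exact conditional binomial 95% intervals and shares Clopper-Pearson ones, which cover counting error only. With 1 biological sample no test was made. Replicates of 0 counts were set to 3 counts in the 2-fold rule, which left out the 28 genes of the limits. Named genes were the 10 furthest each way with at least 100 counts in the higher class, the 5 label markers, list members and the 30 of largest spread. The members and gene lists were chosen with earlier results of these data known. Work was done in Python 3.11.15 with pandas 2.3.3, scipy 1.17.1, numpy 2.4.6 and matplotlib 3.10.9, and the size rule was tested on simulated counts.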

Additional observations from a re-analysis of the deposited data

How the results depend on the processing

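No paired analysis was possible because both libraries belong to 1 group and 1 biological sample, and no test was made. Depth, the absolute count limits and RNA of other cells limit every comparison, and the arterial one is limited further by its 55 barcodes. Counts of genes are given as higher and then lower in capillary barcodes where both moved by over 1.5 times; the cause of each move was not tested unless fewer barcodes or a changed minimum is its construction.

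Against arterial barcodes (50 higher, 47 lower), the higher genes were 14 with class sums of at least 3, 21 with barcodes of at least 8000 counts, 22 without the limit on dividing cells and 78 with the mean over barcodes of CPM. With a minimum of 10 counts there were 95 and 101, with a minimum of 50 counts 13 and 25, and with no minimum 131 and 481. The lower genes were 11 at 2000 counts a barcode. With 1 technical replicate, the higher genes numbered 260 to 348 and the lower 136 to 166, as only 1 library had to pass. Against endocardial barcodes (466 higher, 533 lower), requiring the capillary sum of 8 in every endothelial class left 7 endocardial barcodes and gave 122 and 5. A minimum of 50 counts gave 298 and 231, and 2000 counts a barcode 252 and 161. The lower genes were 314 with at least 8000 counts, 803 with a minimum of 10 counts and 1326 with none. With 1 technical replicate there were 736 to 839 higher and 798 to 892 lower genes. Against non-endothelial barcodes (1733 higher, 1742 lower), the higher genes were 1095 with median-of-ratios size factors, 1027 without mitochondrial and haemoglobin counts in the total, 839 under 20% mitochondrial counts, 1101 with a minimum of 50 counts and 2699 with none, and 2000 counts a barcode gave 798 and 1047. The share of calls that were higher was 49.9%, and 31.9%, 29.7% and 29.0% under the first 3 of these.

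Leaving out barcodes with 5 or more counts of cardiomyocyte, fibroblast, pericyte, smooth muscle or macrophage markers left 38 capillary, 2 arterial and 9 endocardial barcodes. It gave 1 and 0 genes against arterial, 56 and 3 against endocardial and 170 and 379 against non-endothelial barcodes. With so few barcodes, 46 of the ratios of single genes had 0 counts in a class and could not be given, among them 9 of the 10 genes named as higher than in arterial barcodes. The tenth, Ramp3, turned to 0.427 over the 2 arterial barcodes. With the cardiomyocyte list not used, a setting added after the data were seen like those on 8000 counts and on the capillary sum in every class, 267 capillary, 30 arterial and 29 endocardial barcodes remained. The lower genes were then 22 against arterial barcodes, there were 285 and 53 genes against endocardial ones, and the ratio of Acta2 over arterial barcodes turned to 1.62, by construction, since Acta2 is on the smooth muscle list that leaves barcodes out. The capillary share of 2.55% was 3.20% with at least 1000 genes, 3.89% with at least 8000 counts, 4.17% without the limit on dividing cells, 6.90% under 20% mitochondrial counts, 0.323% without barcodes of other types and 2.27% with the cardiomyocyte list not used. Of the ratios of single genes over all settings, 1002 stayed within their counting interval, 262 moved beyond it on the same side and 2 turned, and 102 could not be given because a class had 0 counts.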
